A study of Mus musculus with 2 samples.

Results

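T-box genes encode transcription factors that share a DNA-binding region, the T-box. Signals of Tbx1, Tbx2, Tbx3, Tbx4, Tbx5, Tbx6, Tbx15, Tbx18 and Tbx20 were read in limb buds lacking Bhlha9, the gene of a transcription factor of the basic helix-loop-helix class, and in wild-type limb buds. All probe sets annotated with exactly 1 of these 9 gene symbols were taken, and each was read separately. This gave 19 of the 45037 non-control probe sets of the array. The knockout group was 1 array of RNA from Bhlha9 knockout embryos, and the wild-type group was 1 array of RNA from wild-type embryos. Both were of the C57BL/6 line and used whole limb buds at E10.5. How many embryos gave each RNA, whether forelimb and hindlimb buds were taken in equal amounts, and which part of Bhlha9 was deleted are not stated in the labels. With 1 array per genotype there was no replicate and no test of genotype, so "higher" and "lower" describe these arrays only.

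In the early limb bud, Tbx5 is transcribed in the forelimb and Tbx4 in the hindlimb, and both act upstream of Fgf10, the mesenchymal growth factor that starts outgrowth. Tbx2 and Tbx3 are repressors transcribed along the anterior and posterior margins of the bud, in the apical ectodermal ridge in the case of Tbx3, and in tissues outside the limb, Tbx3 in the embryonic liver among them. Tbx15 and Tbx18 are transcribed in proximal limb and trunk mesenchyme and take part in forming the shoulder girdle. Tbx1 acts in the pharyngeal region, Tbx6 in presomitic mesoderm, and Tbx20 in the heart and in cranial motor neurons.

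Signals are MAS 5.0 intensities on a linear scale. On each array the 40th percentile served as a floor, 41.8 for the knockout and 41.2 for the wild type, and signals below it counted as not detected. Ratios are log2 of knockout over wild type. Where only 1 array was above the floor the ratio is a bound, and where neither was, no ratio was given. The error beside a ratio is the robust SD of 1 log2 ratio at a like signal, read from the disagreement between probe sets of the same gene over 5440 genes. It was 0.15 in the brightest quintile of these genes and 0.46 in the dimmest, and it does not cover variation from embryo to embryo or between dissections.

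Of the 19 probe sets, 16 exceeded the floor on 1 or both arrays, 14 of them on both. At least 2-fold lower signals on the knockout array were read for 7 of the 16, against a background of 4.51% of all 29201 probe sets above the floor. Of these 7, 6 were above the floor on both arrays. The remaining one, 1422195_s_at of Tbx15, passed it on the wild-type array alone, which set its direction. At least 2-fold higher signals were read for 1 of the 16, against a background of 3.22%. The lower probe sets belonged to Tbx4, Tbx5, Tbx15 and Tbx20, and the higher one to Tbx2. Loess normalization left 6 lower and 1 higher T-box probe sets, and gave 1148 higher and 1013 lower over all probe sets, where the deposited scale gave 941 and 1317. With the floor at the 60th percentile, 3 T-box probe sets were lower and 1 higher, beside 444 lower and 244 higher over all probe sets. Tbx1 and dim probe sets of Tbx5 and Tbx20 had no ratio at that floor. The share of all probe sets called there was not computed. Ratios were negative for 12 and positive for 4, with a median of -0.80, beside a median of -0.05 over all probe sets above the floor. For the 14 above the floor on both arrays the median was -0.66, beside -0.06 for all such probe sets. The other 2 passed the floor through the wild-type reading alone, so a negative sign was given in advance. Among the 6 genes with several probe sets above the floor, 5 had the same sign in all of them, and the exception was Tbx3.

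**Figure D1:**
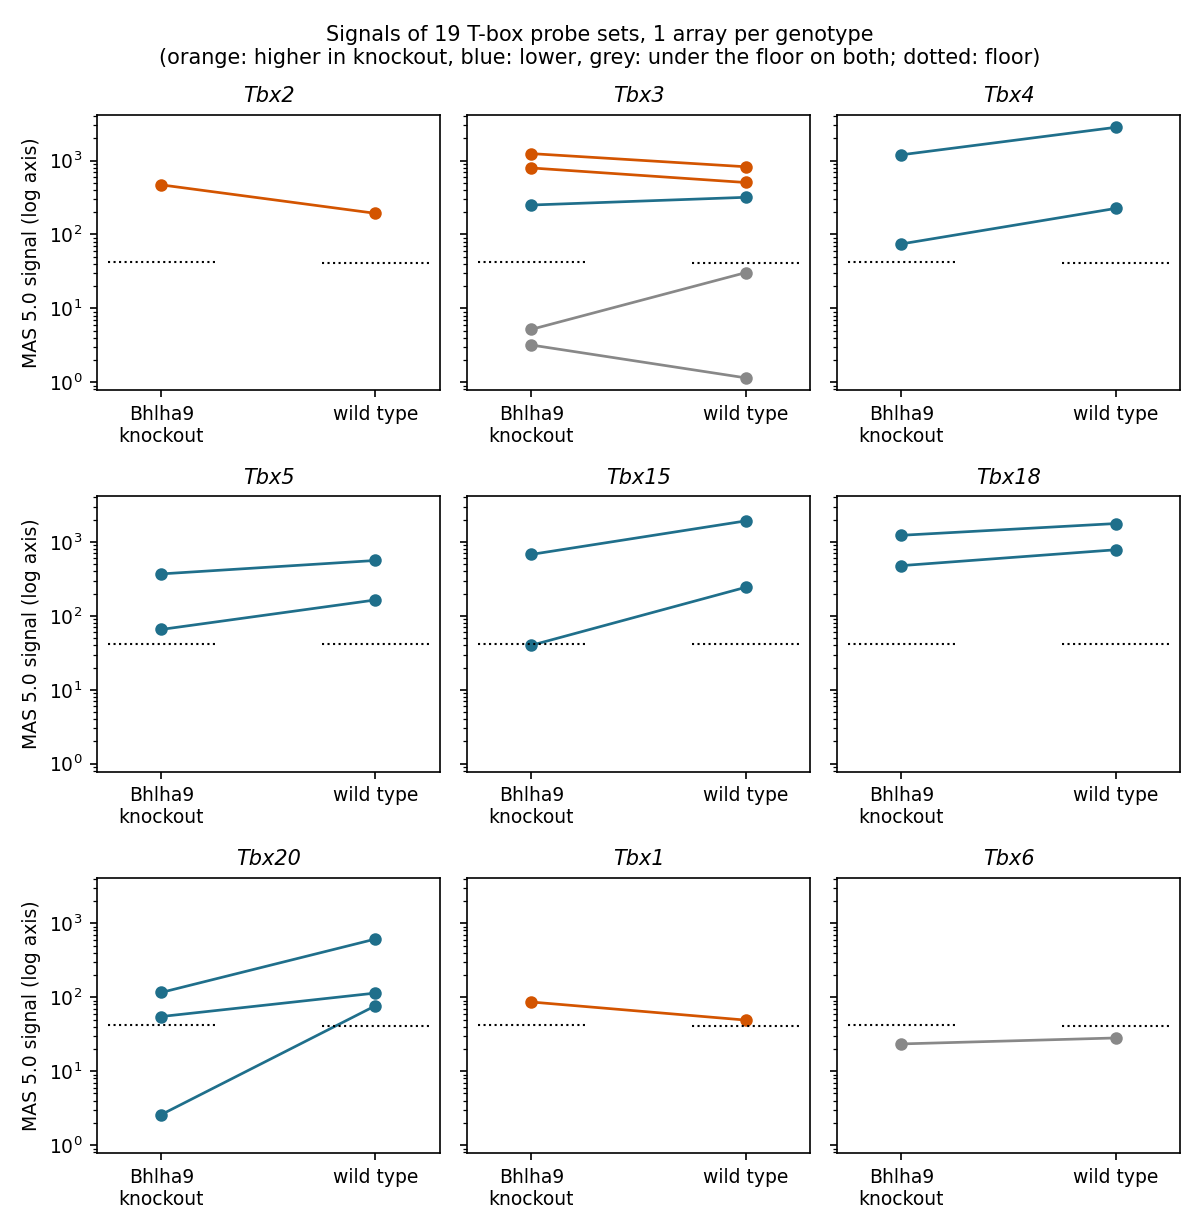
Signals of the 19 T-box probe sets on the knockout and wild-type arrays, 1 panel per gene, on a log axis. Each line joins the readings of 1 probe set, and dotted lines mark the floors of 41.8 (knockout) and 41.2 (wild type). All lines of Tbx4, Tbx5, Tbx15, Tbx18 and Tbx20 are lower on the knockout array, and those of Tbx2 and Tbx1 are higher.

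The limb identity genes Tbx4 and Tbx5 were both lower on the knockout array. Tbx4, the hindlimb gene, read 1195 on the knockout array and 2810 on the wild-type array by its brighter probe set, 1456033_at, a log2 ratio of -1.23 ± 0.15. Its other probe set, 1426321_at, read 74.5 on the knockout array and 225 on the wild-type array, a log2 ratio of -1.59 ± 0.46. The Tbx4 probe sets thus lay beyond 2-fold in the same direction, and the knockout signal of the dimmer one came within 2-fold of the floor. Tbx5, the forelimb gene, read 369 on the knockout array and 561 on the wild-type array by 1425695_at, a log2 ratio of -0.60 ± 0.28. By 1425694_at it read 65.5 on the knockout array and 164 on the wild-type array, a log2 ratio of -1.33 ± 0.46. The direction was shared, but only the dimmer Tbx5 probe set passed 2-fold, and its knockout signal also came within 2-fold of the floor. By the brighter probe set of each gene, the ratio of Tbx5 exceeded that of Tbx4 by 0.63 on the log2 scale, with an error of 0.32. Both are transcribed in limb mesenchyme, and 13 mesenchyme markers had a median log2 ratio of -0.86 on the same arrays, or -0.88 over the 12 detected on both, with a summed signal of 20470 on the knockout array and 36039 on the wild-type array. All 13 ratios were negative, but Hoxa13 was detected on the wild-type array alone, which set its sign, and Hoxd13 stood at -0.03. In whole-tissue RNA, fewer cells of a type and less RNA per cell cannot be told apart.

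Tbx15 was lower than its relative Tbx18. Tbx15, which acts in the mesenchyme of the shoulder girdle and skin, read 678 on the knockout array and 1922 on the wild-type array by 1418755_at, a log2 ratio of -1.503 ± 0.24. Of all probe sets above the floor, 0.921% had a ratio as low. The other probe set, 1422195_s_at, read 40.02 on the knockout array, under the floor, and 243 on the wild-type array, at least 5.82-fold lower. IDs with this ending are used where probes match more than 1 transcript, so the fold of this probe set may not belong to Tbx15 alone. Tbx18, which acts in somites, proximal limb mesenchyme and the epicardium, read 1229 on the knockout array and 1771 on the wild-type array by 1429974_at, a log2 ratio of -0.53 ± 0.24. By 1449871_at it read 478 on the knockout array and 783 on the wild-type array, a log2 ratio of -0.71 ± 0.28. Neither Tbx18 probe set reached 2-fold, and 18.3% and 11.0% of all probe sets above the floor had ratios as low. By the brighter probe set of each, the ratio of Tbx15 lay below that of Tbx18 by a log2 difference of -0.98, with an error of 0.34. The 13 limb mesenchyme markers had ratios between -0.03 and -1.92, a range that holds both genes' brighter probe sets.

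Tbx20 had the lowest ratio of the family among probe sets above the floor on both arrays. Its brightest probe set, 1453351_at, read 116 on the knockout array and 613 on the wild-type array, 5.27-fold lower, with a log2 ratio of -2.40 ± 0.37. Only 0.0514% of all probe sets above the floor had a ratio as low. The next, 1425158_at, read 54.9 on the knockout array and 114 on the wild-type array, a log2 ratio of -1.05 ± 0.46 and the closest of the family inside the 2-fold threshold. The last, 1422219_a_at, read 2.59 on the knockout array, under the floor, and 76.8 on the wild-type array. Its bound of at least 1.84-fold lower was the closest outside the threshold. All probe sets of Tbx20 were thus lower on the knockout array, by differing amounts. Among 10 heart muscle markers, 5 were under the floor on both arrays, among them Nkx2-5, Nppa and Myh6, and the summed signal was 626 on the knockout array and 289 on the wild-type array. Of the other 5, Myl7, Actn2 and Myh7 were detected on the knockout array alone, with bounds of 2.87, 0.98 and 0.56 on the log2 scale. Ryr2 and Smyd1, detected on both arrays, stood at -0.54 and -0.56, and 0 of 3 other Smyd1 probe sets above the floor shared that sign. The part of heart tissue in the Tbx20 signals was not tested. Isl1, transcribed in motor neurons, the heart fields and the early hindlimb, read 3355 on the knockout array and 973 on the wild-type array.

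Tbx2 and Tbx3, the repressors of the family, had higher signals in most probe sets. Tbx2 has 1 probe set here, 1422545_at, which read 468 on the knockout array and 193 on the wild-type array, a log2 ratio of 1.28 ± 0.37. Of all probe sets above the floor, 1.72% had a ratio as high. Tbx3 read 1239 on the knockout array and 824 on the wild-type array by 1448029_at, a log2 ratio of 0.59 ± 0.24. By 1437479_x_at, whose ending marks probes open to cross-hybridisation, it read 793 on the knockout array and 504 on the wild-type array, a log2 ratio of 0.65 ± 0.28. A further probe set, 1445757_at, read 250.0 on the knockout array and 318 on the wild-type array, a log2 ratio of -0.35 that lay within its error of 0.37. The remaining Tbx3 probe sets, 1439567_at and 1444594_at, were under the floor on both arrays. They read 5.21 and 3.20 on the knockout array, against 30.4 and 1.15 on the wild-type array. Tbx3 was thus less than 2-fold apart in each probe set with a ratio, and 1 of these ran the other way. Liver markers, of a tissue that also transcribes Tbx3, summed to 34121 on the knockout array and 372 on the wild-type array, with 10 of 11 above the floor and 8 of them on the knockout array only. The part of this tissue in the Tbx2 and Tbx3 signals was not tested.

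Tbx1 and Tbx6 were read near or under the floor. Tbx1, the gene of the pharyngeal arches, read 86.2 on the knockout array and 49.1 on the wild-type array by its only probe set, 1425779_a_at, a log2 ratio of 0.81 ± 0.46. Both signals were close to the floor, and 5.33% of all probe sets had a ratio as high. Tbx6, which specifies paraxial mesoderm, read 23.4 on the knockout array and 28.1 on the wild-type array by 1449868_at. It was under the floor on both arrays, so no ratio was given.

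**Figure D2:**
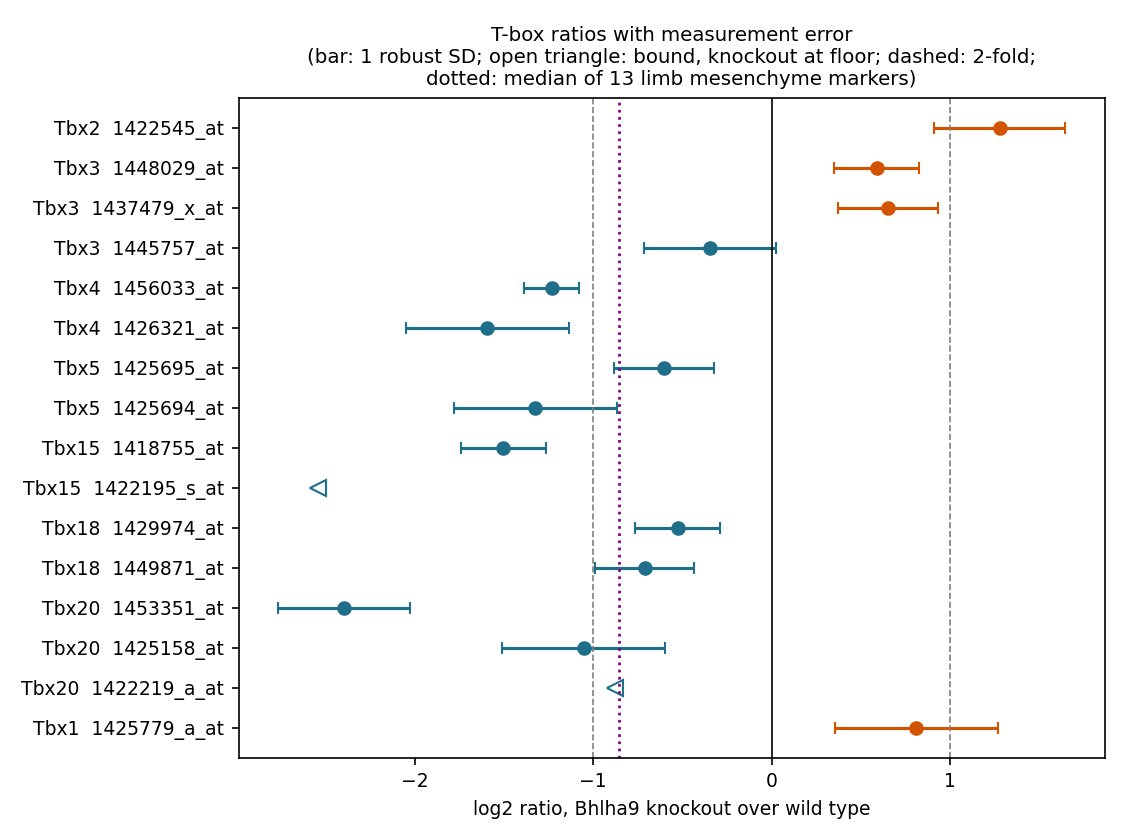
Log2 ratios, knockout over wild type, of the 16 T-box probe sets above the floor on at least 1 array. Bars are 1 robust SD of a ratio at a like signal, open triangles are bounds, dashed lines mark 2-fold, and the dotted line marks the median of the 13 limb mesenchyme markers, -0.86. Points of Tbx4, Tbx5, Tbx15, Tbx18 and Tbx20 lie left of zero, and those of Tbx2, Tbx1 and 2 Tbx3 probe sets lie right of it.

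**Figure D3:**
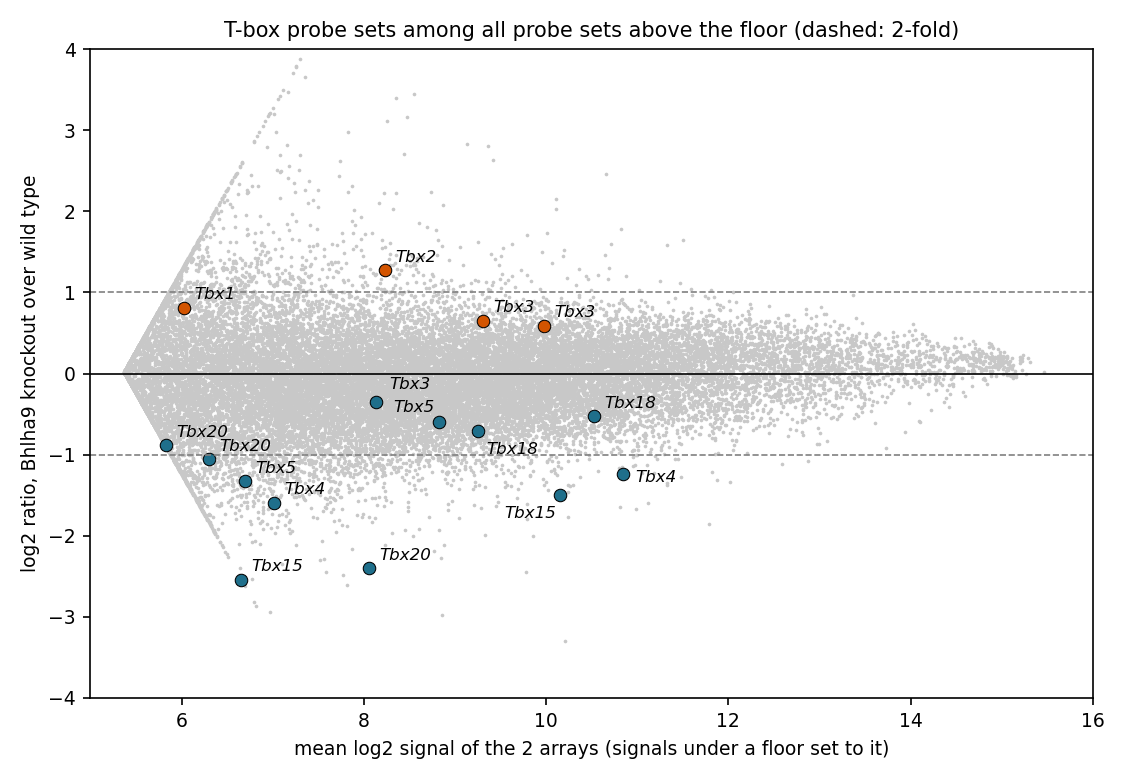
Log2 ratio against mean log2 signal for the 29201 probe sets above the floor on at least 1 array, with signals under a floor set to it, T-box probe sets marked (orange higher, blue lower on the knockout array) and dashed lines at 2-fold. A total of 21 probe sets lie beyond the vertical axis. Tbx15 and Tbx4 at high signal and Tbx20 at intermediate signal sit at the lower edge of the cloud, Tbx2 at its upper edge, and Tbx18, Tbx3 and the brighter Tbx5 probe set inside it.

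Members of the Tbx2 subfamily stand in pairs in the mouse genome, Tbx2 beside Tbx4 and Tbx3 beside Tbx5, with no protein-coding gene between them in the GRCm38.p6 annotation. By the brightest probe sets, the repressor gene of each pair had a positive ratio and the limb identity gene a negative one. In these probe sets Tbx2 exceeded Tbx4 by 2.51 on the log2 scale, with an error of 0.40, and Tbx3 exceeded Tbx5 by 1.19, with an error of 0.37. The flanking genes of the Tbx2 and Tbx4 pair had small ratios. Bcas3 and Ppm1d on the Tbx2 side stood at 0.24 and 0.45, and Brip1 and Ints2 on the Tbx4 side at -0.02 and 0.37. Near the other pair, Med13l, a Mediator subunit gene on the Tbx3 side, stood at -0.32. Rbm19, a nucleolar RNA-binding protein gene next to Tbx5, was 2.05-fold lower, at 304 on the knockout array and 623 on the wild-type array. Spring1, the next gene on the Tbx3 side, stood at -0.81. Beside the unpaired members, Gp1bb next to Tbx1 stood at -0.88 and Gnb1l at 0.19. Next to Tbx15, Wars2 stood at -0.02, and next to Tbx20, Herpud2 stood at 0.14. Of the genes next to Tbx18, Cep162 stood at 0.25 and Nt5e, detected on the knockout array alone, at a bound of 0.76. The neighbours were chosen by position, after the members' values were seen.

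**Figure D4:**
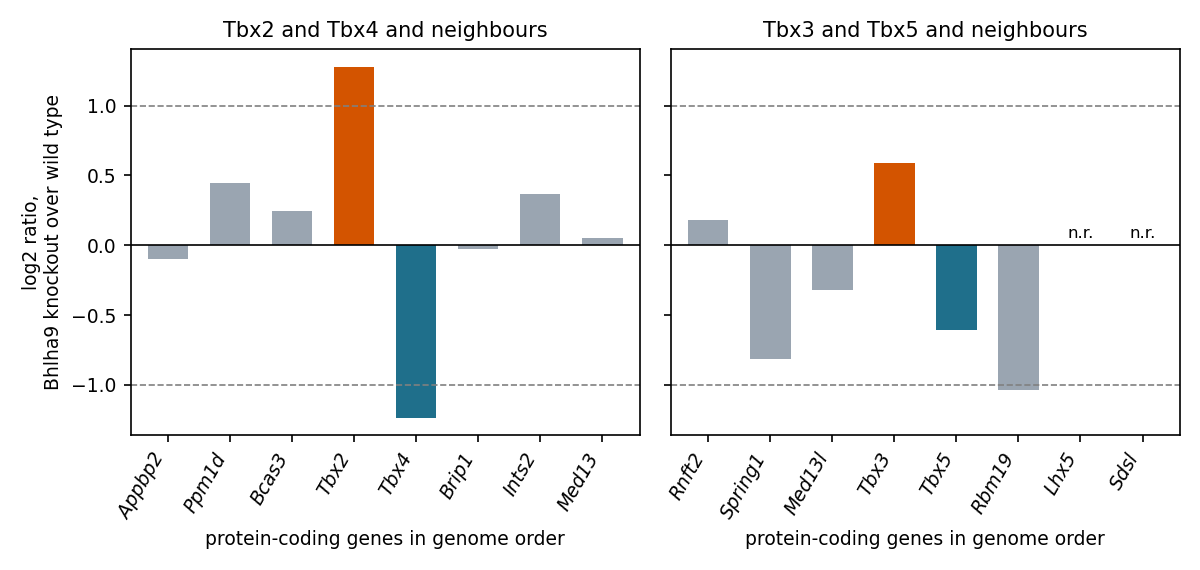
Log2 ratios, knockout over wild type, of the paired T-box genes and 3 protein-coding genes on either side in genome order, by the brightest probe set of each gene. Dashed lines mark 2-fold, and n.r. marks genes with no ratio. Tbx2 (1.28) and Tbx4 (-1.23) point in opposite directions, as do Tbx3 (0.59) and Tbx5 (-0.60), and Rbm19 (-1.04) passes 2-fold.

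Start-site regions were looked up for the members, and RefSeq promoters of 5 of the 9 genes, from 250 bases before to 50 after a start, were present in the table used. Those of Tbx4, Tbx18 and Tbx20 are shown because these genes had lower signals in every probe set, to differing degrees. Motifs were searched on both strands, and capitals mark each match. They were the E-box CANNTG, the core sequence bound by basic helix-loop-helix factors, the T-box half-site AGGTGTGA, TATAAA and CCAAT. The N of CANNTG stands for any base, and this pattern is its own reverse complement. Matches of the others on the opposite strand appear as their reverse complements, TTTATA and ATTGG.
Tbx4 promoter, GRCm38.p6, chr11:85896515-85896814, plus strand: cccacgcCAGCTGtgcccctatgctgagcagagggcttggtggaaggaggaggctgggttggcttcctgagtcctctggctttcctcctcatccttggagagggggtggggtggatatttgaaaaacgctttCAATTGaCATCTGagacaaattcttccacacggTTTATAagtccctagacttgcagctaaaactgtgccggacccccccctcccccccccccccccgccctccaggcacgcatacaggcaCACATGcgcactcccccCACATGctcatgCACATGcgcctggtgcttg
Tbx18 promoter, GRCm38.p6, chr9:87731211-87731510, minus strand: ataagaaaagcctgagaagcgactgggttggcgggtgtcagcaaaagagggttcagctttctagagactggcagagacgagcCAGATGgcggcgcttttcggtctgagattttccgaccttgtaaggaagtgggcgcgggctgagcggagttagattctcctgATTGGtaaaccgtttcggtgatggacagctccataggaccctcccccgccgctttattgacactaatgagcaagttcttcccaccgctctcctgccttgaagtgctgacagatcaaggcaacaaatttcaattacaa
Tbx20 promoter, GRCm38.p6, chr9:24774254-24774553, minus strand: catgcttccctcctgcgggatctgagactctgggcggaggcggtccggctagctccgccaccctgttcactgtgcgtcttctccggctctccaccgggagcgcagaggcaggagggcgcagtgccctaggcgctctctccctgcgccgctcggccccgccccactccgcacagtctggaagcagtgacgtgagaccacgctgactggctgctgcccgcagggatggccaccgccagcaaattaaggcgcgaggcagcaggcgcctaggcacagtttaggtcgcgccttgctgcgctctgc
The Tbx4 window held 6 matches of CANNTG and 1 of TATAAA, the Tbx18 window held 1 of CANNTG and 1 of CCAAT, and the Tbx20 window held none of these motifs. At least 1 match was found in 72.3% of all 32851 promoters for CANNTG, 13.6% for TATAAA and 37.4% for CCAAT. How many promoters held as many as 6 matches of CANNTG was not counted. Of the windows not shown, 1 of Tbx1, which read higher, held 2 matches of CANNTG. The other Tbx1 window and that of Tbx6 held none of CANNTG, and the Tbx6 window held 1 match of TATAAA. The half-site AGGTGTGA was found in 1.28% of all promoters and in none of those of the members. The windows also differed in base composition, with 8 CpG in that of Tbx4, 15 in that of Tbx18 and 26 in that of Tbx20, where the median promoter held 7. A match is a description of letters and not a binding site.

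Genes of limb initiation that act with Tbx4 and Tbx5 did not share 1 direction. Of 18 listed genes above the floor, 4 were at least 2-fold higher, against a background of 4.15% of the 13088 genes above the floor, and 1 was lower, against 2.65%. Their median log2 ratio was 0.16, beside 0.01 for all genes. Pitx1, the hindlimb factor upstream of Tbx4, read 552 on the knockout array and 1163 on the wild-type array, a log2 ratio of -1.07. The higher genes were Hoxc5 (2.64), Isl1 (1.79), Hoxc4 (1.497) and Aldh1a2 (1.47), the last encoding an enzyme that makes retinoic acid. Fgf10 and the zinc finger gene Sall4, reported targets of Tbx5, stood at -0.86 and -0.52 and were named after their values were seen. Fgf10 read 89.7 on the knockout array and 162 on the wild-type array.

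Genes of the posterior limb bud and of BMP and hedgehog signalling, in which Tbx2 and Tbx3 take part, had a median log2 ratio of -0.32 over 21 genes above the floor. Of these, 1 was at least 2-fold higher and 2 lower, against 4.15% and 2.65% of all genes, and 15 ratios were negative. The count of higher genes is near that background. Shh, the posterior signal, stood at 1.52, the homeobox gene Msx1 at -1.37 and the BMP antagonist gene Grem1 at -1.30. Gli3, the hedgehog-regulated repressor, stood at -0.95. Cdkn2a, a cell cycle inhibitor gene known to be repressed by Tbx2 and Tbx3, did not reach either floor, at 3.32 on the knockout array and 19.9 on the wild-type array. Cdkn1a, a related target, stood at 0.30.

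Shoulder girdle genes studied with Tbx15 and Tbx18 had a median of 0.02 over 14 genes above the floor, of which 2 passed 2-fold upward and 0 downward, against 4.15% and 2.65% of all genes. The higher ones were the homeobox genes Alx1 (1.33) and Emx2 (1.15), while Pax1 stood at 0.86 and Gli3, shared with the list above, at -0.95. Ratios were positive for 7 of the 14 and negative for 7, so the list had no shared direction beside the lower readings of Tbx15 and Tbx18.

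Of 15 somite genes acting with Tbx6 and Tbx18 that were above the floor, 4 passed 2-fold upward and 0 downward, against 4.15% and 2.65% of all genes. Ratios were positive for 13, and the median was 0.60. The 4 were Foxc2 (1.44), the Notch ligand gene Dll3 (1.40), the myogenic gene Myf5 (1.29) and Uncx (1.14), which marks the posterior part of each somite. Msgn1, Hes7 and Ripply2, genes of the presomitic mesoderm where Tbx6 acts, were under the floor on both arrays, as Tbx6 was. Snai1 stood at -0.63, Tcf15 at -0.02 and Mesp1 at 0.05. Mesp2, Lfng and Pax9 were detected on the knockout array alone, which set their sign in advance, and over the 12 detected on both the median was 0.77.

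Cardiac genes acting with Tbx5 and Tbx20 had a median of 0.64 over 14 members above the floor, or 0.26 over the 11 detected on both arrays. Of the 14, 5 passed 2-fold upward and 0 downward, against 4.15% and 2.65% of all genes, and 3 were detected on the knockout array alone. Myl4, an embryonic myosin light chain gene, stood at 3.47, the troponin gene Tnnt2 at 2.23 and Isl1 at 1.79. Myl7, an atrial myosin light chain gene, was at least 7.32-fold higher and Gata4 at least 2.16-fold higher, since their wild-type signals were below the floor. Hand1 stood at 0.82. Ratios were positive for 10 of the 14 and negative for 4, which were Smyd1 (-0.56), Actc1 (-0.47), Hand2 (-0.37) and Gja1 (-0.07). Nkx2-5, Nppa, Nppb, Gja5 and Myh6 were under the floor on both arrays.

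Pharyngeal genes acting with Tbx1 had a median of 0.21 over 15 members above the floor, 4 of which passed 2-fold upward and 0 downward, against 4.15% and 2.65% of all genes. Tcf21, a basic helix-loop-helix gene of branchial muscle and visceral mesoderm, stood at 1.73, Foxc2 at 1.44 and Six2 at 1.40. Foxa2, a gene of endoderm and floor plate, was at least 4.82-fold higher, and Eya1 stood at 0.91. Over all 99 distinct genes above the floor in these lists and that of T-box cofactors, 18 were at least 2-fold higher and 3 lower, against 4.15% and 2.65% of all genes. The lower count is near that background. Of the 99, 8 were detected on the knockout array alone, which set their sign in advance. Foxa2, Myl7 and Gata4, all counted as higher, were among these. Over the 90 detected on both arrays the median was 0.06, and over the 12 such pharyngeal genes it was 0.18.

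Most other T-box genes on the array were under the floor, and Mga was the exception. Of 8 listed, 6 had a probe set with 1 symbol, and the other two, T and Tbx10, were not analysed here. Eomes, Tbr1, Tbx21 and Tbx22 were under the floor on both arrays in every probe set. Tbx19, a pituitary factor, read 25.2 on the knockout array, under the floor, and 48.4 on the wild-type array by 1 probe set. Mga, a large protein with both a T-box and a basic helix-loop-helix region, had 4 of its 5 probe sets above the floor. Its brightest read 1624 on the knockout array and 1339 on the wild-type array, a log2 ratio of 0.28, while the other 3 stood at -0.14, -1.07 and -0.59, so its probe sets did not share a sign.

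Tissue markers also differed between the arrays, some lists lower and others higher on the knockout array. The 13 limb mesenchyme markers, all above the floor on at least 1 array, had a median log2 ratio of -0.86, with 5 at least 2-fold lower and 0 higher, against 2.65% and 4.15% of all genes. Endothelial markers summed to 5155 on the knockout array and 6334 on the wild-type array, with 8 of 9 ratios negative. Of these, Tie1 was detected on the wild-type array alone, which set its sign in advance. The endothelial median was -0.69, or -0.47 over the 8 markers detected on both arrays. Neural markers summed to 4290 on the knockout array and 1022 on the wild-type array. Of 15 above the floor, 10 were at least 2-fold higher and 0 lower, against 4.15% and 2.65% of all genes. Of the 15, 9 were detected on the knockout array alone, so that their sign was given in advance. Dcx, a neuron marker detected on both arrays, ran the other way, at 331 on the knockout array and 481 on the wild-type array. Skeletal muscle markers summed to 3247 on the knockout array and 864 on the wild-type array, and markers of mesothelium and body wall to 3646 on the knockout array and 1586 on the wild-type array. Ectodermal markers summed to 10007 on the knockout array and 5792 on the wild-type array, and red cell markers to 91874 on the knockout array and 86012 on the wild-type array. Sox2, a neural marker, read 890 on the knockout array and 136 on the wild-type array, Wt1 of mesothelium 476 on the knockout array and 118 on the wild-type array, and Afp of liver 19084 on the knockout array and 17.7 on the wild-type array, below its floor. In each of these 3 lists 1 marker, Nkx2-2, Msln and Ahsg in that order, was under the floor on both arrays. Of the 13 limb mesenchyme markers, 12 were above the floor on both arrays, and Hoxa13 was under the knockout floor. Their ratios ran from -0.03 for Hoxd13 to -1.92 for Lmx1b. How much of each sample was limb bud was not tested.

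An alternative chosen after seeing the data set each T-box ratio against the median of the mesenchyme markers, by subtracting -0.86. It left 2 of the 16 probe sets at least 2-fold lower, 1422195_s_at of Tbx15 (-1.69, a bound) and 1453351_at of Tbx20 (-1.54), where the deposited scale gave 7. It gave 4 at least 2-fold higher, 1 of Tbx2 (2.13), 2 of Tbx3 (1.51 and 1.44) and 1 of Tbx1 (1.67). The subtraction raises every ratio alike. On the deposited scale 25.1% of all probe sets above the floor stood at 0.28 or more, which it carries past 2-fold upward. At most 0.688% stood low enough to pass 2-fold downward. The full shares of all probe sets on this scale were not counted. On this scale Tbx4 stood at -0.38 and -0.74, Tbx5 at 0.25 and -0.47, Tbx15 at -0.65 by its brighter probe set, and Tbx18 at 0.33 and 0.14. The other Tbx20 probe sets stood at -0.20 and -0.02. The ratios of both Tbx18 probe sets, of the brighter Tbx5 probe set and of 1445757_at of Tbx3 (0.51) thus changed sign relative to mesenchyme, and the other 12 did not. The median subtracted was the ratio of 1 marker, Fgf10, which lies downstream of Tbx4 and Tbx5. Fgf10 read 89.7 on the knockout array and 162 on the wild-type array. Ratios of the 13 markers ranged from -0.03 to -1.92, so signs on this scale depend on the reference taken. The part of tissue composition in the T-box ratios was not tested.

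**Figure D5:**
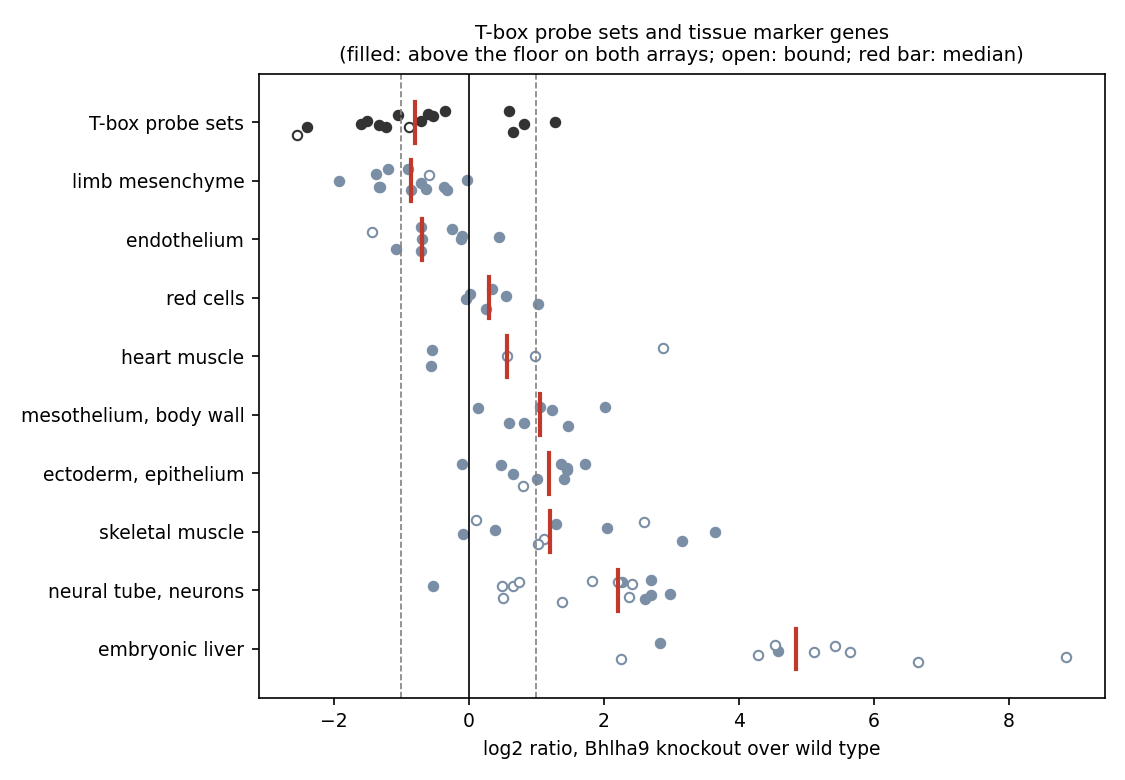
Log2 ratios, knockout over wild type, of the 16 T-box probe sets and of marker genes of 9 tissues above the floor on at least 1 array. Filled points were above the floor on both arrays, open points are bounds, red bars are medians, and dashed lines mark 2-fold. The T-box points run in both directions around a median of -0.80 (-0.66 for those above the floor on both arrays), limb mesenchyme has a median of -0.86 (-0.88 on both arrays), and liver, neural, skeletal muscle, ectoderm and mesothelium markers have positive medians. Medians of red cell (0.30) and heart muscle (0.56) markers are also positive, and that of heart muscle is -0.55 over the 2 genes detected on both arrays.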

How the data were processed

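Per the series' design text, biotinylated RNA made from 200 ng of total RNA was hybridised to Affymetrix Mouse Genome 430 2.0 arrays, and signals were summarised with MAS 5.0. The deposited values are intensities on a linear scale, 1 signal per probe set, scaled by the authors on each array separately, and the 2% trimmed mean was 500.0 on both arrays. Detection calls were not used here. Of 45101 probe sets, 64 controls were set aside. Of the rest, 34945 had 1 symbol in the platform annotation, and 34741 of these matched RefSeq genes of GRCm38.p6 by Entrez ID, 932 had several and 9160 had none. Members and lists were chosen with earlier results of these data known. All member probe sets and all other T-box genes were named. From each list, genes past 2-fold and up to 4 with the largest ratios on both arrays were named, by the brightest probe set. Arrays of 1 genotype each limit the precision, and no p-value was computed. The single Bhlha9 probe set read 1.70 on the knockout array and 7.87 on the wild-type array, under the floor on both, and so did not check the labels. Steps were tested on simulated data. Alternatives covered scaling, floors, thresholds and choice of probe set. Python 3.11.15 with numpy 2.4.6 and pandas 2.3.3, and limma 3.58.1 in R 4.3.3, were used.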

Additional observations from a re-analysis of the deposited data

How the results depend on the processing

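All 16 T-box probe sets with a ratio kept their sign under the scaling and floor alternatives planned for them, in 92 of 92 recomputed ratios. Adding the same pseudocount of 32 to both arrays cannot change a sign. Raising signals to a floor can do so only where the floors of the arrays differ. Those alternatives were therefore little or no check of sign. At the 60th percentile floor, Tbx1, 1425694_at of Tbx5, and 1422219_a_at and 1425158_at of Tbx20 had no ratio. Of the recomputed ratios, 6 moved by more than their error. With the floor at the 60th percentile, 3 T-box probe sets were at least 2-fold lower, where the deposited scale with the floor at the 40th percentile gave 7, and the dimmer probe sets of Tbx4 and Tbx15 stood at -0.55 and -0.66. At that floor all probe sets gave 244 higher and 444 lower calls, and genes acting with T-box factors gave 10 higher. With the floor at the 20th percentile, all probe sets gave 4485 higher and 4510 lower calls, and the listed genes gave 6 lower. At 1.5-fold there were 4 higher and 10 lower T-box probe sets, and 2992 higher and 4556 lower over all probe sets. At 3-fold there were 0 higher and 3 lower T-box probe sets, and 251 higher and 207 lower over all. Relative to the mesenchyme median, an alternative chosen after seeing the data, there were 4 higher and 2 lower T-box probe sets. Calls over all probe sets were not counted on that scale. Different floors change which dim signals count as readings, so counts that rest on dim probe sets move by construction. No paired analysis was possible because each genotype had 1 array, and no array could be left out.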

Other observations

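Cofactors reported to bind T-box proteins lay close to the bulk of genes. Their median log2 ratio was -0.12 over 16 genes above the floor, of which 1 passed 2-fold upward and 0 downward, against 4.15% and 2.65% of all genes, a share near that background. The higher one was Gata4, detected on the knockout array alone. Chd7, a chromatin remodeller gene, read 1097 on the knockout array and 1976 on the wild-type array, a log2 ratio of -0.85. Pdlim7, which encodes a cytoplasmic partner of Tbx4 and Tbx5, stood at -0.58, Wwtr1, the gene of the coactivator TAZ, at 0.57, and Sall4 at -0.52. The histone deacetylase genes Hdac1, Hdac2 and Hdac3, named after their values were seen, stood at 0.18, 0.25 and -0.06.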
